A study of Drosophila melanogaster and Drosophila simulans and Drosophila yakuba with 24 samples.

Results

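Cuticle protein genes were taken as the rows of the gene count table whose symbol begins with Cpr, Ccp, Lcp, Twdl or Cpap. The prefixes picked 118 of 13898 genes, and no symbol began with Cpap. One of the 118, Cpr itself, encodes the NADPH-cytochrome P450 reductase and no cuticle protein, so it was kept apart and 117 genes remained, made up of 70 Cpr genes, 25 Twdl genes, 10 Lcp65A genes, 7 Ccp84A genes and 5 other Lcp genes. The question was which of these genes were still transcribed in 10-day-old adult females, and in which tissue.

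The fly cuticle is an extracellular coat of chitin fibres and proteins that the epidermis secretes, and similar linings cover the foregut, hindgut and tracheae. Most Cpr, Ccp and Lcp proteins carry the chitin-binding Rebers and Riddiford motif, while the Tweedle proteins encoded by the Twdl genes form a separate family. Cuticle genes are known for strong, stage-specific expression around each moult and in the pupa, and a much quieter adult.

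RNA-seq of total RNA was available for ovary, eviscerated abdomen, thorax and head of wild-type Canton S females aged 10 days, with 3 biologically independent libraries per tissue and 25 to 100 flies pooled in each. The eviscerated abdomen is the abdominal wall with its attached fat body after the inner organs were taken out, and thorax and head were whole body segments. All 4 groups were untreated and of 1 genotype. The other samples of the series are fat body libraries, for which no gene values were analysed here.

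The gene counts summed to 22247599 to 32498809 in ovary, 7884586 to 11600876 in eviscerated abdomen, 8087981 to 13630001 in thorax and 14040598 to 19208152 in head. Summed marker genes matched the labels: neuron and eye genes lay at 28229 to 31481 CPM (counts scaled to library size with TMM factors) in head and at no more than 553 CPM elsewhere, muscle genes were highest in thorax, and the sum of fat body and oenocyte genes was highest in eviscerated abdomen. That last peak rested on Cyp4g1, which gave 36965, 26383 and 27783 of the 63132, 50297 and 60278 CPM in eviscerated abdomen. In head Cyp4g1 gave 35.4, 32.5 and 29.6 of 33461, 40284 and 41366 CPM. Eviscerated abdomen also held germline genes at 602 to 1409 CPM and follicle cell genes at 4405 to 6451 CPM, against 1819 to 1922 CPM and 12503 to 13047 CPM in ovary, and thorax held gut genes at 4925 to 6928 CPM, against 7.49 to 11.9 CPM in head. In whole body parts, fewer cells of a type and less RNA per cell cannot be told apart. Library 1 of eviscerated abdomen stood apart, with 13 cuticle protein genes far above both other abdomen libraries, so that results resting on it are given with and without it, and library 1 of head detected more genes of every kind, with at least 1 CPM for 12191 genes, against 10273 and 10139 in the other head libraries.

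A gene was called expressed in a tissue when it reached 1 CPM in all 3 libraries, which is 7.08 to 42.1 raw counts depending on the library. By this measure 0 of 117 cuticle protein genes were expressed in ovary, 13 (11.1%) in eviscerated abdomen and 20 (17.1%) in thorax, while head had 32 (27.4%). The same level was reached by 55.7% of all genes in ovary, 64.7% in eviscerated abdomen and 67.6% in thorax, and by 71% for head. No tissue reached the level for 81 of the cuticle protein genes (69.2%), against 23% of all genes. The summed level of the 117 genes was 6.90 ± 0.57 CPM in ovary, 835 ± 502 CPM in eviscerated abdomen, 482 ± 107 CPM in thorax and 748 ± 22.1 CPM in head (SD, n = 3 each). Without abdomen library 1, at 1410 CPM, the mean of eviscerated abdomen was 548 CPM, below that of head. A minimum of 5 CPM left eviscerated abdomen with 5 expressed genes, thorax with 10 and head with 14. Single libraries of these parts had 7881 to 8512 of all 13898 genes at 5 CPM or more. The share of all genes at 5 CPM in all 3 libraries was not counted.

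The 36 expressed genes fell into a few patterns. Head alone expressed 14 of them, the largest class, which held Cpr72Ec, Cpr49Ag, Cpr11B, Ccp84Aa, Ccp84Ab and Ccp84Ag. The class is set by the level alone, and in it Cpr62Bc, Cpr64Aa, Lcp65Ag1, Lcp65Ag3 and TwdlG were not called different between thorax and head. Without abdomen library 1, Cpr62Bc, Lcp65Ag1 and Lcp65Ag3 were called lower in thorax than in head. TwdlG had a mean of 2.18 CPM in thorax and 3.01 CPM in head (edgeR adjusted p = 0.536). In all 3 somatic parts 10 genes were expressed, namely Cpr65Au, Cpr49Ae, Cpr67B, Cpr57A, Cpr60D, Cpr62Bb, Cpr97Eb, Cpr100A, Cpr47Ea and Lcp65Ag2. Thorax and head shared 8 further genes, among them Cpr47Ee, Cpr47Ef, Cpr66D, Cpr76Bd and TwdlT. Eviscerated abdomen alone had Cpr62Ba and Cpr67Fb, eviscerated abdomen and thorax shared Cpr49Ab, and Lcp1, a larval cuticle protein gene, was expressed in thorax alone.

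**Figure D1:**
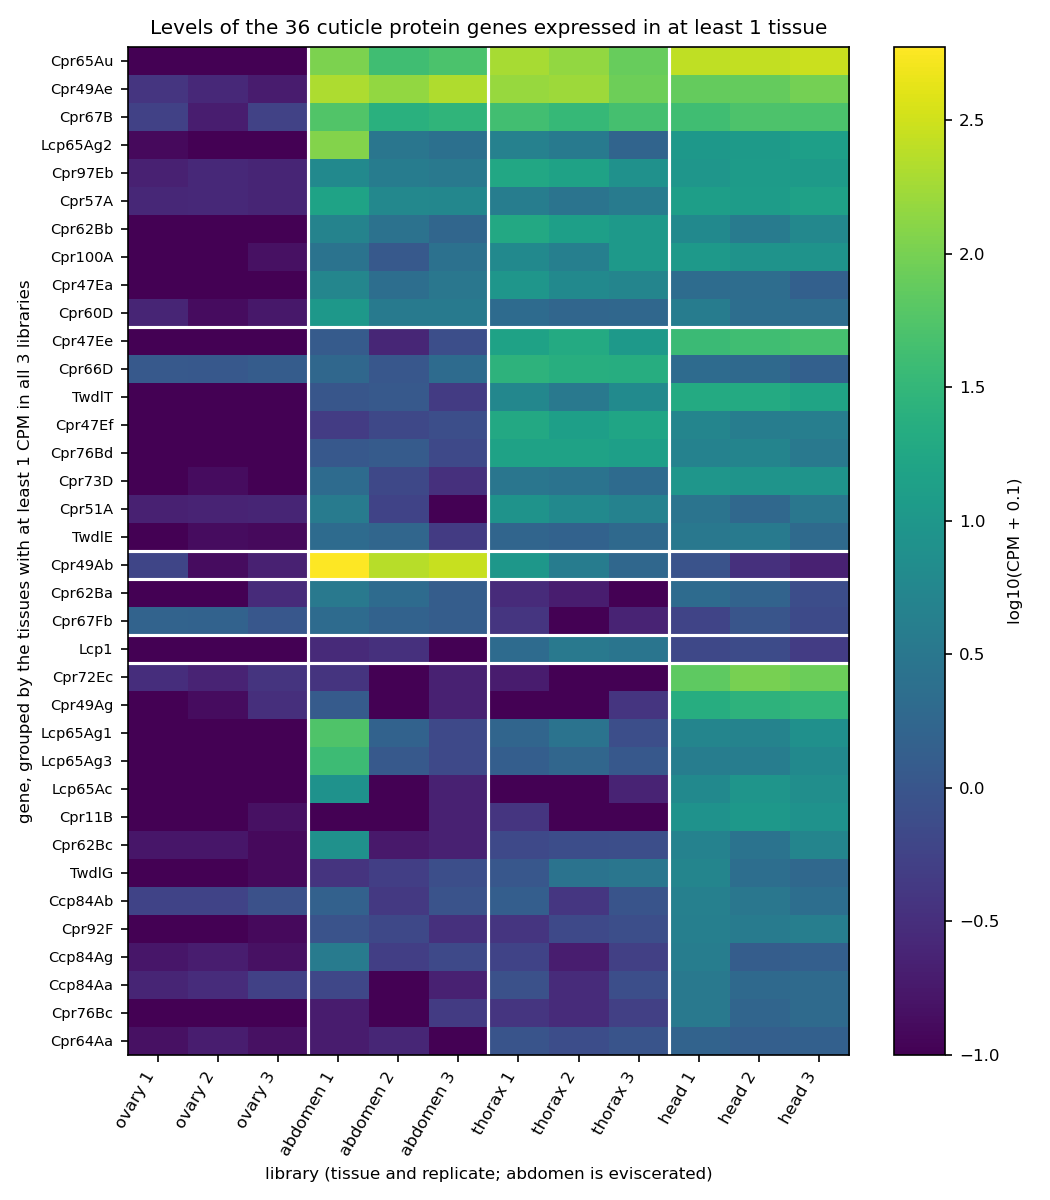
Levels of the 36 expressed cuticle protein genes, 1 row per gene and 1 column per library, coloured by log10(CPM + 0.1), with white lines between tissues and between the groups of genes set by the tissues in which they reached 1 CPM. The ovary columns are dark throughout, Cpr49Ab is bright in the eviscerated abdomen columns, and Cpr72Ec and Cpr49Ag are bright in the head columns.

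Over the whole set 36 of 117 genes were expressed in at least 1 tissue, and differences of families or clusters from that share were not tested. Of 70 Cpr genes 25 were expressed in at least 1 tissue, and of 25 Twdl genes 3 were (TwdlE, TwdlG and TwdlT). Of 10 Lcp65A genes 4 were expressed, of 7 Ccp84A genes 3, and of the 5 other Lcp genes only Lcp1. The Tweedle gene TwdlD, whose dominant alleles change body shape, was among the 81 below the level. Several clusters named for their polytene map position were split: at 49A on arm 2R 3 of 8 genes were expressed, at 47E on 2R 3 of 7, at 84A on 3R 3 of 7 and at 65A on 3L 5 of 17. At 76B 2 of 4 were expressed, at 64A 1 of 4, at 67F 1 of 3 and at 72E 1 of 3. All 3 of 3 reached the level at 62B, 0 of 3 at 65E and 0 of 3 at 78C.

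Per gene length, Cpr65Au (FBgn0042119, arm 3L) was the most abundant of the 117 in head and in thorax. Cpr65Au had 0 counts in all 3 ovary libraries, 107, 41.3 and 50.4 CPM in eviscerated abdomen, 191, 146 and 79.4 CPM in thorax, and 259, 269 and 299 CPM in head. The head libraries were all above every thorax library, and the thorax and abdomen libraries overlapped. Cpr65Au was lower in thorax than in head, with a log2 fold change of -0.99 ± 0.36 (SE) and an edgeR adjusted p of 0.048, a call lost in 13 of 22 alternatives, among them leaving out any head library. It was lower in eviscerated abdomen than in head (-2.06 ± 0.37, edgeR adjusted p = 0.000427), a call held in all 22 alternatives. Counting 3 reads as the floor for the 3 ovary libraries together, Cpr65Au was at least 10406.57-fold lower in ovary than in head.

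Cpr49Ae (FBgn0033728, arm 2R) was expressed in all 3 somatic parts. Its levels were 0.285, 0.170 and 0.0965 CPM in ovary, 205, 147 and 210 CPM in eviscerated abdomen, 154, 169 and 86.8 CPM in thorax, and 76.1, 75.1 and 96.5 CPM in head. The 3 abdomen libraries were all above the 3 head libraries, while thorax overlapped both. Cpr49Ae was higher in eviscerated abdomen than in head by 1.18 ± 0.25 on the log2 scale (edgeR adjusted p = 0.000916). The difference between thorax and head was 0.73 ± 0.25 (edgeR adjusted p = 0.033), and it missed the threshold without head library 1, head library 2, thorax library 1 or thorax library 2, with the replicate block and with library size alone as the scaling. Between eviscerated abdomen and thorax it was 0.45 ± 0.25 (edgeR adjusted p = 0.122), which did not pass.

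Cpr67B (FBgn0035985, arm 3L) was the most even of the abundant genes. It had 0.428, 0.102 and 0.459 CPM in ovary, 56.0, 25.0 and 29.1 CPM in eviscerated abdomen, 42.0, 34.0 and 45.9 CPM in thorax, and 40.7, 52.1 and 49.9 CPM in head. The 3 somatic parts overlapped. The log2 fold change was -0.23 ± 0.29 for thorax against head, -0.37 ± 0.29 for eviscerated abdomen against head and -0.15 ± 0.29 for eviscerated abdomen against thorax (edgeR adjusted p of 0.56, 0.259 and 0.67). Without abdomen library 1, in which the gene was highest, Cpr67B was called lower in eviscerated abdomen than in head and than in thorax.

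Cpr49Ab (FBgn0050042, arm 2R) was the highest of the 117 per gene length in eviscerated abdomen. It had 0.523, 0.0340 and 0.121 CPM in ovary, 595, 230 and 283 CPM in eviscerated abdomen, 9.94, 3.69 and 1.70 CPM in thorax, and 0.819, 0.239 and 0.122 CPM in head. The lowest abdomen library was above every library of the other tissues, and the lowest thorax library was above every head library. The log2 fold change was 9.83 ± 0.83 for eviscerated abdomen against head (edgeR adjusted p = 2.03e-07), 6.13 ± 0.66 against thorax (edgeR adjusted p = 2.39e-06) and 3.70 ± 0.85 for thorax against head (edgeR adjusted p = 0.00341). Each of these 3 calls held in all 22 alternatives. The value against head was 10.999 and that for thorax against head 4.87 without head library 1, and without thorax library 1 the value against thorax was 7.12 and that for thorax against head 2.81. Cyp4g1, the oenocyte cytochrome P450 that makes cuticular hydrocarbons, was likewise highest in eviscerated abdomen and next in thorax, while ovary and head overlapped. It had 59.7, 28.8 and 79.7 CPM in ovary, 36965, 26383 and 27783 CPM in eviscerated abdomen, 1445, 520 and 544 CPM in thorax, and 35.4, 32.5 and 29.6 CPM in head. Cyp4g1 belongs to the list of 5 fat body and oenocyte genes, whose sum peaked in eviscerated abdomen through Cyp4g1, as given above. That sum overlapped between thorax, at 30311 to 35847 CPM, and head, at 33461 to 41366 CPM. The part of Cyp4g1 in the Cpr49Ab result was not tested.

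The expressed neighbours at 49A had different tissue patterns, with Cpr49Ab expressed in eviscerated abdomen and thorax, Cpr49Ae in all 3 somatic parts and Cpr49Ag in head. Cpr49Ag (FBgn0033730) had 0, 0.0340 and 0.217 CPM in ovary, 1.09, 0 and 0.118 CPM in eviscerated abdomen, 0, 0 and 0.283 CPM in thorax, and 22.4, 27.6 and 30.9 CPM in head. No library outside head came within an order of magnitude of the head libraries. It was lower in eviscerated abdomen than in head (log2 fold change -6.03 ± 0.73, edgeR adjusted p = 6.36e-06), and the value was -8.93 without abdomen library 1 and -5.32 without abdomen library 2. In thorax it rested on 2 counts over 3 libraries, which gave head a ratio of 375 over thorax with a 95% counting interval of 104 to 3102.

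**Figure D2:**
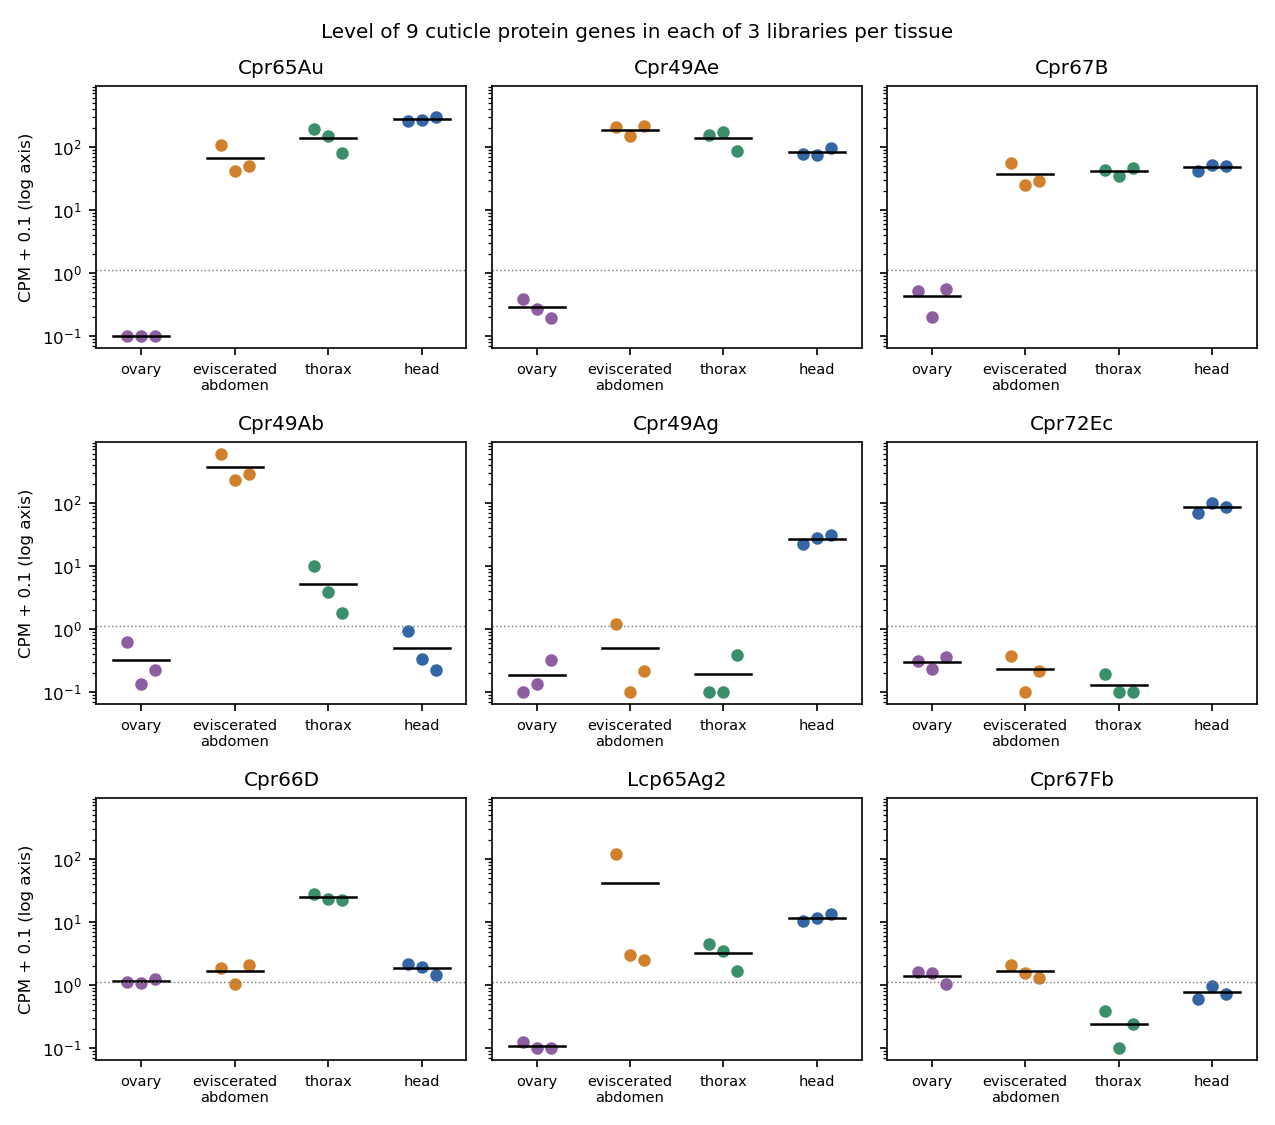
CPM + 0.1 on a log axis for 9 cuticle protein genes, with 1 point per library, a bar at the mean of 3 libraries and a dotted line at 1 CPM. Cpr65Au, Cpr49Ae and Cpr67B lie at 25 CPM or more in every somatic library, Cpr49Ab peaks in eviscerated abdomen, Cpr49Ag and Cpr72Ec in head and Cpr66D in thorax, and 1 abdomen library lifts Lcp65Ag2.

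Between genes, levels were set side by side only within a tissue, as the deposited RPKM, which divides reads by gene length and depth. In eviscerated abdomen the order was led by Cpr49Ab at 119 ± 59.7 RPKM, ahead of Cpr49Ae at 43.7 ± 10.2 RPKM, Cpr65Au at 40.2 ± 20.2 RPKM and Lcp65Ag2 at 20.03 ± 32.3 RPKM, and Cpr67B, Lcp65Ag1, Lcp65Ag3 and Cpr60D followed between 3.11 and 9.99 RPKM. Over abdomen libraries 2 and 3 alone the order was Cpr49Ab at 85.6 RPKM, Cpr49Ae at 42.7 RPKM, Cpr65Au at 28.8 RPKM and Cpr67B at 7.60 RPKM, with Cpr60D at 1.94 RPKM and Lcp65Ag2 at 1.37 RPKM behind them and Lcp65Ag1 and Lcp65Ag3 outside the first 8. In thorax Cpr65Au stood at 139 ± 69.1 RPKM, Cpr49Ae at 51.6 ± 20.6 RPKM and Cpr67B at 17.6 ± 2.53 RPKM, followed by Cpr66D, Cpr62Bb, Cpr97Eb, Cpr47Ee and Cpr51A between 4.33 and 9.79 RPKM. In head Cpr65Au reached 139.7 ± 36.6 RPKM, and Cpr49Ae at 15.9 ± 4.55 RPKM, Cpr72Ec at 13.7 ± 5.34 RPKM, Cpr67B at 10.95 ± 3.66 RPKM and Cpr49Ag at 10.2 ± 3.46 RPKM lay within 1 SD of their neighbours in the order. Cpr47Ee, Lcp65Ag2 and Lcp65Ac came next in head, between 3.45 and 6.97 RPKM. In ovary the first place went to Cpr67Fb at 3.07 ± 0.74 RPKM and the second to Cpr66D at 1.04 ± 0.08 RPKM, and Ccp84Ab, Cpr30B, Ccp84Aa, Cpr67B, Twdlalpha and Cpr49Ab were between 0.29 and 0.75 RPKM. Values with ± are means and SD over 3 libraries.

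**Figure D3:**
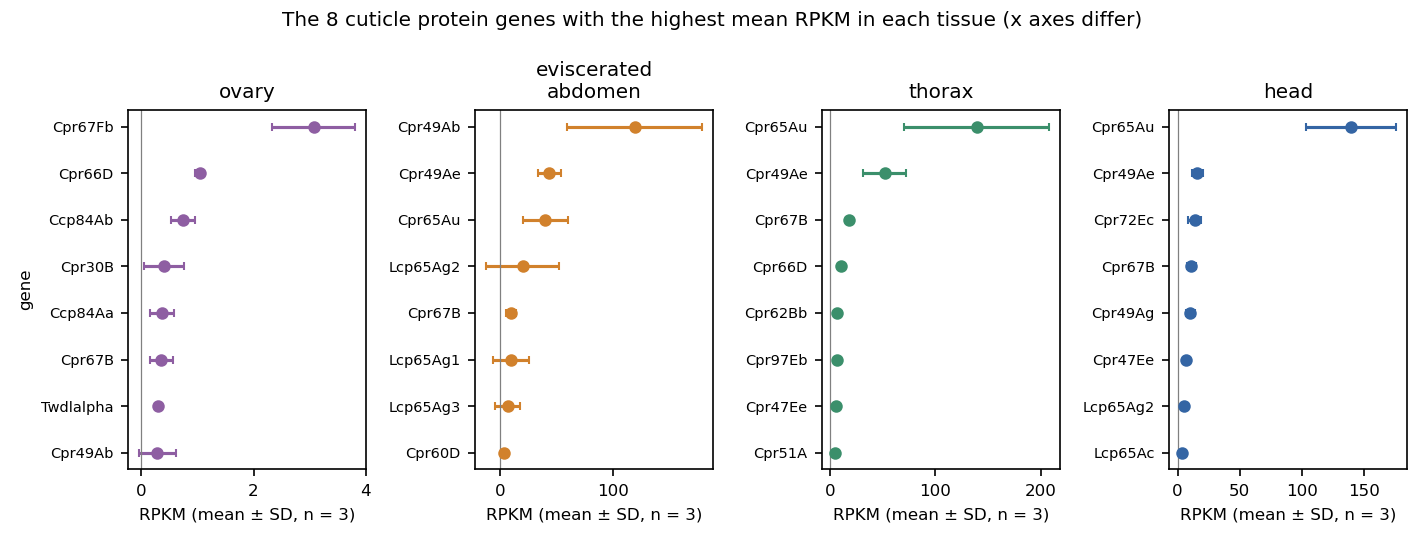
Mean RPKM with SD over 3 libraries for the 8 cuticle protein genes highest in each tissue, on x axes that differ between the panels. The leading gene is Cpr67Fb in ovary, at 3.07 RPKM, Cpr49Ab in eviscerated abdomen, at 119 RPKM, and Cpr65Au in thorax and head, at 139.2 and 139.7 RPKM.

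Of the 117 genes 40 passed the filter on low counts and could be compared between tissues, and the other 77 did not have enough reads in enough libraries. TwdlM was left out in this way, with 349 counts in abdomen library 1 and 0 in abdomen libraries 2 and 3. Of these 40, 8 were higher and 16 lower in thorax than in head at an edgeR adjusted p under 0.05, against 16.5% higher and 25.4% lower of the 11188 genes tested. The median log2 fold change was -1.21 over the 40 and -0.17 over all genes tested. The genes higher in thorax were led by Cpr66D, Cpr49Ab, Lcp1 and Cpr47Ea, and those lower by Cpr72Ec, Cpr49Ag, Lcp65Ac and Cpr11B. Without abdomen library 1, 47 genes were tested and 25 were lower, and the share of all genes lower in that setting was not counted. That library takes no part in the contrast but does in the filter and in the model fitted to all tissues. Of the genes gained, Cpr62Bc, Cpr78Cb, Lcp65Ag1, Lcp65Ag2 and Lcp65Ag3 were already among the 40. With all libraries, Lcp65Ag2 was at -1.85 ± 1.14 in thorax against head (edgeR adjusted p = 0.211), without overlap between libraries. The parts of the filter and of the fit in these gains were not tested.

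Cpr66D (FBgn0052029, arm 3L) had 1.02, 0.987 and 1.16 CPM in ovary, 1.73, 0.951 and 2.01 CPM in eviscerated abdomen, 27.6, 23.04 and 22.5 CPM in thorax, and 2.02, 1.83 and 1.34 CPM in head. Thorax was apart from all other libraries. The log2 fold change was 3.82 ± 0.26 for thorax against head (edgeR adjusted p = 1.27e-07), -3.99 ± 0.27 for eviscerated abdomen against thorax (edgeR adjusted p = 4.24e-08) and -4.52 ± 0.26 for ovary against thorax (edgeR adjusted p = 2.41e-09). The gut marker genes were also highest in thorax, as given above, and their part in the Cpr66D result was not tested.

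Other genes higher in thorax than in head lay at lower levels. Cpr47Ef (FBgn0033603), with 19.0, 13.5 and 16.5 CPM in thorax and 5.17, 3.91 and 4.08 CPM in head, differed by 1.90 ± 0.26 on the log2 scale (edgeR adjusted p = 0.000123). Cpr76Bd, with 14.9, 15.0 and 13.3 CPM in thorax and 4.60, 4.94 and 3.23 CPM in head, differed by 1.76 ± 0.27 (edgeR adjusted p = 0.000325). Both genes had 0 counts in ovary, and both were separate between thorax and head in all libraries. Cpr47Ea, with 9.46, 6.12 and 5.09 CPM in thorax and 2.08, 2.15 and 1.34 CPM in head, differed by 1.90 ± 0.43 (edgeR adjusted p = 0.00451), and Cpr62Bb, with 18.7, 13.4 and 11.02 CPM in thorax and 5.99, 3.67 and 5.60 CPM in head, by 1.498 ± 0.363 (edgeR adjusted p = 0.00662). Lcp1 reached 2.01, 3.31 and 2.83 CPM in thorax, against 0.567, 0.638 and 0.365 CPM in head, and its call (log2 fold change 2.37 ± 0.60, edgeR adjusted p = 0.00877) was lost without head library 3 or thorax library 2.

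The eye lens is itself a cuticle, and 4 genes of the corneal lens were followed as a list: Crys, retinin, Cpr66D and Cpr72Ec. Cpr72Ec (FBgn0036619, arm 3L) had 0.214, 0.136 and 0.265 CPM in ovary, 0.273, 0 and 0.118 CPM in eviscerated abdomen, 0.0956, 0 and 0 CPM in thorax, and 68.3, 99.8 and 84.7 CPM in head. The head libraries stood alone, with a log2 fold change of -9.32 ± 0.39 for eviscerated abdomen against head (edgeR adjusted p = 3.51e-10, with -10.57 without abdomen library 1 and -8.60 without abdomen library 2), and a ratio of head to thorax, where 1 read was counted, of 2313 with a 95% counting interval of 415 to 91372. Retinin had 117, 133 and 129 CPM in head, 0 counts in ovary and eviscerated abdomen and at most 0.191 CPM in thorax. Crys, or drosocrystallin, lay at 0.191, 0.486 and 3.11 CPM in thorax, against 7.88, 13.0 and 10.5 CPM in head (log2 fold change -3.17 ± 0.89, edgeR adjusted p = 0.0116, lost without thorax library 1 or thorax library 2, and at -4.90 without thorax library 3). In thorax against head 3 of these 4 genes were lower and 1, Cpr66D, was higher, in eviscerated abdomen against head 3 were lower, and in ovary against head all 4 were lower, where 25.4%, 39.2% and 46.4% of all genes tested were lower in these comparisons.

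Head was also the tissue of several genes at moderate levels. Cpr47Ee (FBgn0033602) had 0 counts in ovary, 1.09, 0.158 and 0.710 CPM in eviscerated abdomen, 14.6, 20.5 and 11.02 CPM in thorax, and 37.9, 41.4 and 46.4 CPM in head. Eviscerated abdomen lay below thorax and thorax below head, without overlap, with a log2 fold change of -1.44 ± 0.28 for thorax against head (edgeR adjusted p = 0.00189, not called on RPKM) and -6.04 ± 0.41 for eviscerated abdomen against head (edgeR adjusted p = 1.26e-07, with -6.72 without abdomen library 1). The Tweedle gene TwdlT showed the same order, with 0 counts in ovary, 0.911, 1.03 and 0.355 CPM in eviscerated abdomen, 5.45, 3.21 and 6.36 CPM in thorax, and 20.5, 20.3 and 16.1 CPM in head (log2 fold change -1.93 ± 0.30 for thorax against head, edgeR adjusted p = 0.000387, and -4.56 ± 0.37 for eviscerated abdomen against head, edgeR adjusted p = 6.05e-07). Cpr11B (FBgn0030398, X chromosome) had 8.38, 10.3 and 8.40 CPM in head and 3 counts or fewer over the libraries of each other tissue, so that head stood 82.8-fold over thorax with a 95% counting interval of 28.1 to 403. Cpr92F, with 0.287, 0.583 and 0.707 CPM in thorax and 4.16, 3.67 and 4.08 CPM in head, and Cpr73D, with 2.96, 2.62 and 1.98 CPM in thorax and 9.46, 8.77 and 8.89 CPM in head, were also lower in thorax (log2 fold change -2.93 ± 0.57 and -1.83 ± 0.50, edgeR adjusted p of 0.00104 and 0.0106). TwdlT, Cpr11B and Cpr73D each overlap another gene, whose reads cannot be told apart from theirs.

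Set against head, eviscerated abdomen had 2 of the 40 higher (Cpr49Ab and Cpr49Ae) and 18 lower, where the background was 35.8% higher and 39.2% lower of all genes tested, and the median log2 fold change was -1.27 over the 40 and -0.08 over all. Without abdomen library 1, 34 of 47 genes tested were lower, all 18 included. The share of all genes lower in that setting was not counted, so the rise cannot be called particular to cuticle protein genes. The count of higher genes ran up to 7 without abdomen library 3, and was also over 1.5 times as large without abdomen library 2, thorax library 2 or any ovary library. Between eviscerated abdomen and thorax 10 were higher and 15 lower, against 35.5% and 36.9% of all genes tested, with a median of -0.20 over the 40 and -0.08 over all. Of the 10 higher genes 4 were called without abdomen library 1, and the 6 lost were Ccp84Ag, Cpr60D, Lcp65Ac, Lcp65Ag1, Lcp65Ag2 and Lcp65Ag3. The 4 that held were Cpr49Ab, Cpr57A, Cpr62Ba and Cpr67Fb. The largest falls in eviscerated abdomen against thorax were those of Cpr47Ef (-4.92 ± 0.33, edgeR adjusted p = 1.67e-07), Cpr47Ee (-4.60 ± 0.42, edgeR adjusted p = 1.73e-06, and -5.31 without abdomen library 1), Lcp1 (-4.10 ± 0.73, edgeR adjusted p = 0.000373) and Cpr66D.

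Cpr62Ba and Cpr67Fb were low everywhere. Cpr62Ba had 3.28, 1.98 and 1.18 CPM in eviscerated abdomen, against 0.191, 0.0972 and 0 CPM in thorax, a ratio of 20.6 with a 95% counting interval of 6.75 to 102 (edgeR adjusted p = 0.00397). In head it had 1.95, 1.51 and 0.670 CPM, which overlapped eviscerated abdomen (log2 fold change 0.65 ± 0.79 for eviscerated abdomen against head, edgeR adjusted p = 0.47), so that it missed the level of 1 CPM in head in 1 library. Cpr67Fb (FBgn0036110, arm 3L) had 1.498, 1.43 and 0.941 CPM in ovary, 2.00, 1.43 and 1.18 CPM in eviscerated abdomen, 0.287, 0 and 0.141 CPM in thorax, and 0.504, 0.877 and 0.609 CPM in head. Ovary and eviscerated abdomen overlapped and both were above thorax, with a log2 fold change of 3.37 ± 0.73 for eviscerated abdomen against thorax (edgeR adjusted p = 0.000993) and 3.11 ± 0.71 for ovary against thorax (edgeR adjusted p = 0.00116), and of 4.62 and 4.36 without thorax library 1. Germline and follicle cell genes were present in the eviscerated abdomen libraries as given above, and their part in the Cpr67Fb level was not tested. Cpr67Fb overlaps the antisense RNA asRNA:CR45171, and reads of the RNA and the gene cannot be told apart.

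Ovary held almost no cuticle transcripts. The 40 genes tested passed a filter over all tissues, and 0 of the 117 were expressed in ovary. They therefore entered mostly through somatic libraries, so the counts and medians given here are in part set by the filter. Of the 40 genes tested 0 were higher and 31 lower in ovary than in eviscerated abdomen (background 32.6% higher and 35.9% lower), 0 higher and 38 lower than in head (39.3% and 46.4%), and 1 higher, Cpr67Fb, and 29 lower than in thorax (40.3% and 43.7%). At an unadjusted p under 0.05 edgeR still gave 0 higher genes against eviscerated abdomen and 0 against head, and at an adjusted p under 0.05 DESeq2 gave 0 and 0 and limma on log2(RPKM + 0.1) gave 6 and 2. The median log2 fold change, with genes at 0 counts set to their bound, was -4.87 against eviscerated abdomen, -6.64 against head and -4.79 against thorax, and over all genes tested it was -0.01, -0.25 and -0.11. Without abdomen library 2 the count lower than eviscerated abdomen was 47, without abdomen library 3 the count lower than head was 58, and more genes passed the filter in both cases. The shares of all genes lower in these settings were not counted. The count higher than thorax was 2 without head library 1, thorax library 1, abdomen library 1 or 2, or ovary library 2. In ovary Cpr47Ee and TwdlT had 0 counts, which put head at least 1579-fold and at least 708-fold higher. Lcp65Ac was also at 0 in ovary, and head was at least 274-fold higher. Thorax was at least 615-fold higher than ovary for Cpr47Ef, at least 598-fold for Cpr47Ee and at least 557-fold for Cpr62Bb. Cpr49Ab, with 28 counts over the 3 ovary libraries, was lower in ovary than in eviscerated abdomen (log2 fold change -10.53 ± 0.82, edgeR adjusted p = 1.3e-07, and -11.82 without ovary library 1), as was Cpr49Ae (-9.92 ± 0.40, edgeR adjusted p = 6.4e-10). Closest to the level for expression in ovary were Cpr66D, with 0.987 CPM in its lowest library, and Cpr67Fb, with 0.941 CPM in its lowest, and each would be counted if 1 ovary library were left out.

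**Figure D4:**
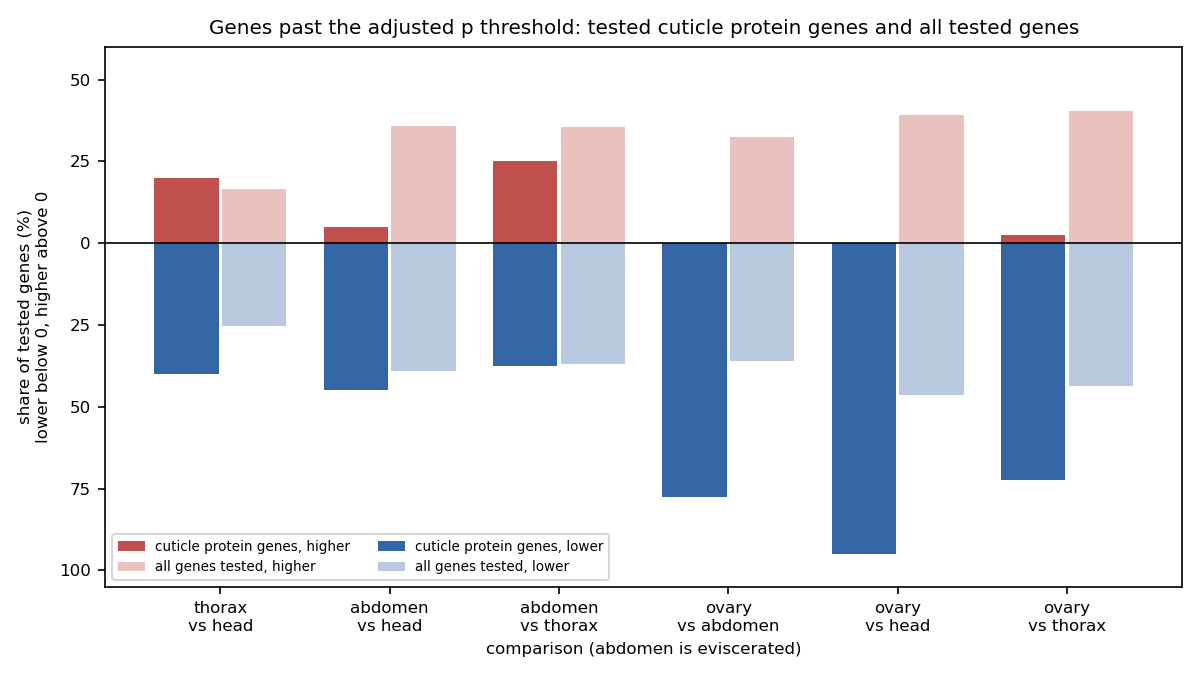
Share of the 40 tested cuticle protein genes (solid bars) and of all 11188 tested genes (pale bars) that were higher (above 0) or lower (below 0) at an edgeR adjusted p under 0.05 in each of 6 comparisons. In the comparisons of ovary 31, 38 and 29 of the 40 cuticle protein genes were lower, and 0, 0 and 1 were higher. The 40 passed a filter over all tissues, mostly through somatic libraries, so the counts for ovary are in part set by the filter.

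Asked for a single tissue above all 3 others, 0 genes were highest in ovary, 1 in eviscerated abdomen (Cpr49Ab), 5 in thorax (Cpr47Ef, Cpr62Bb, Cpr66D, Cpr76Bd and Lcp1) and 11 in head (Ccp84Aa, Ccp84Ab, Cpr11B, Cpr47Ee, Cpr49Ag, Cpr65Au, Cpr72Ec, Cpr73D, Cpr76Bc, Cpr92F and TwdlT), by edgeR at the same threshold. The background over all genes tested was 22.6% for ovary, 8.46% for eviscerated abdomen, 8.48% for thorax and 15.9% for head. The filter bears on the count for ovary, as it does on the comparisons of ovary. At an unadjusted p under 0.05 the edgeR count for ovary was still 0, and limma on RPKM gave 1 at the adjusted threshold. Without abdomen library 1 the count for head was 22 and that for thorax 7, and the count for eviscerated abdomen was 2 to 6 without any one of abdomen libraries 2 and 3, head library 1, the thorax libraries or the ovary libraries. The shares of all genes in these settings were not counted.

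Scaling mattered for the direction of small differences. Library size alone moved the median log2 fold change over all genes by -0.19 to 0.68 across the 6 comparisons, and the deposited RPKM moved it by up to 2.20, for ovary against head, so that RPKM levels were not set side by side between tissues. The split of called cuticle genes differed between edgeR and limma on RPKM. These methods differ in test and model as well as in scaling, and the part of each was not tested. In thorax against head, limma on log2(RPKM + 0.1) called 10 higher and 13 lower, where edgeR called 8 and 16. For eviscerated abdomen, limma called 6 and 20 against head, where edgeR called 2 and 18, and 3 and 19 against thorax, where edgeR called 10 and 15. In ovary against eviscerated abdomen limma called 6 and 25, where edgeR called 0 and 31. With 1 added in place of 0.1 the same 4 comparisons gave 11 and 12, 7 and 19, 5 and 19, and 5 and 16. In ovary against head limma called 2 and 31 with 0.1 added and 2 and 30 with 1 added, where edgeR called 0 and 38. In ovary against thorax limma called 2 and 26, and 1 and 22, where edgeR called 1 and 29. With edgeR, library size alone gave 5 higher and 18 lower in eviscerated abdomen against head, as did upper quartile factors. Of all genes called by limma with 0.1 added, 82.9% were higher in thorax against head. For eviscerated abdomen the share was 55.2% against head and 29.0% against thorax. For ovary it was 80.7% against eviscerated abdomen, 69.2% against head and 65.0% against thorax. With edgeR the shares in the same order were 39.3%, 47.8%, 49.0%, 47.6%, 45.9% and 48.0%.

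Library 1 of eviscerated abdomen differed from libraries 2 and 3 for a set of cuticle genes. It had 50 members at 1 CPM or more, against 19 and 15 in libraries 2 and 3, while its count of all genes at that level was 9561, against 9245 and 9248. Of the 21 members with at least 5 CPM in library 1, 13 were more than 8 times both other abdomen libraries, against 0.409% of all genes with at least 5 CPM there. The 13 were Cpr62Bc, Cpr65Av, Cpr65Ax1, Cpr65Ax2, Cpr78Cc, Lcp65Ac, Lcp65Ag1, Lcp65Ag2, Lcp65Ag3, TwdlB, TwdlL, TwdlM and TwdlN. They summed to 335 CPM in library 1, against 5.47 and 3.79 CPM in libraries 2 and 3. No other library of the 12 had a member that far from both others of its tissue.

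Lcp65Ag2 (FBgn0020637), a gene of the larval cuticle cluster at 65A, had 117 CPM in abdomen library 1, against 2.93 and 2.37 CPM in libraries 2 and 3. In the other tissues it had 0.0238, 0 and 0 CPM in ovary, 4.40, 3.40 and 1.55 CPM in thorax, and 10.1, 11.4 and 13.4 CPM in head. TwdlM had 31.8 CPM in library 1, or 349 counts, and 0 counts in libraries 2 and 3, at least 223-fold by the floor of 3 counts over both. TwdlL, TwdlB, TwdlN, Cpr65Av, Cpr65Ax1, Cpr65Ax2 and Cpr78Cc were likewise at 0 in libraries 2 and 3, with 5.19 to 16.4 CPM in library 1. The call of Lcp65Ag2 higher in eviscerated abdomen than in thorax (3.66 ± 1.15, edgeR adjusted p = 0.0115) turned to -0.25 without library 1, that of Lcp65Ag1 (3.47 ± 1.30, edgeR adjusted p = 0.0318) to -0.69 and that of Lcp65Ag3 (3.37 ± 1.25, edgeR adjusted p = 0.0308) to -0.64, none of which passed. The spermatheca marker genes, which mark a cuticle-lined organ of the female tract, summed to 74.0 CPM in library 1, against 6.34 and 24.6 CPM in libraries 2 and 3, and germline genes to 602 CPM, against 1409 and 1137 CPM. Gut genes summed to 683 CPM in library 1, against 286 and 457 CPM, and muscle genes to 1049 CPM, against 724 and 767 CPM. The part of any of these in the difference was not tested.

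**Figure D5:**
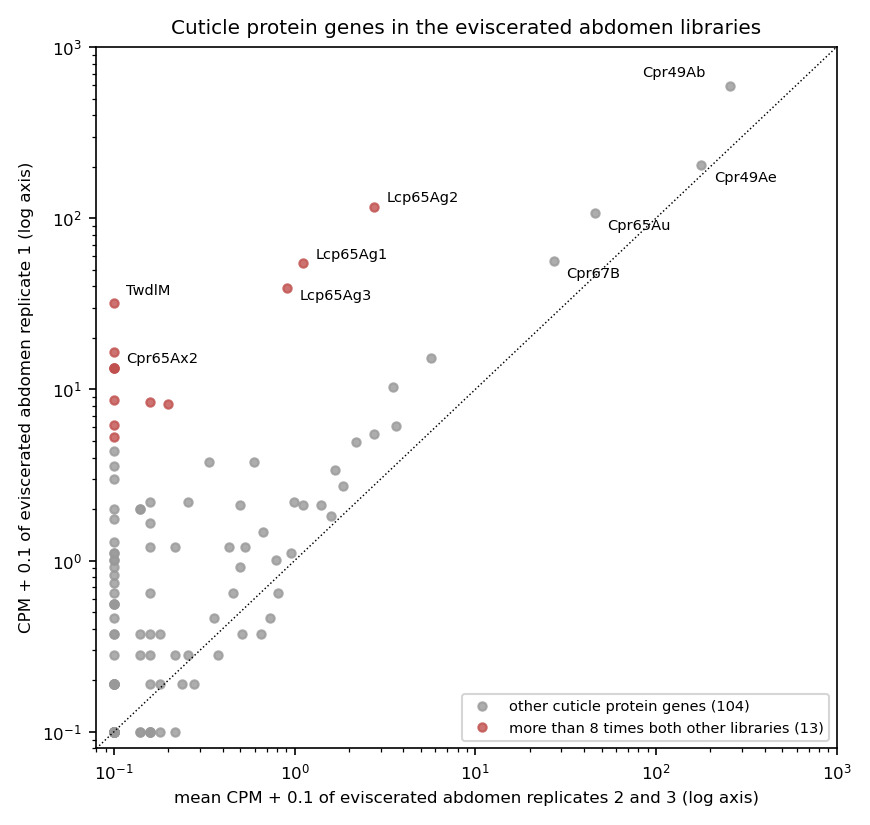
CPM + 0.1 of the 117 cuticle protein genes in eviscerated abdomen library 1 against the mean of libraries 2 and 3, on log axes, with a dotted line of equality. The 13 genes more than 8 times both other libraries are in red and lie far above the line, with TwdlM at 31.8 CPM in library 1 and 0 counts in libraries 2 and 3, while Cpr49Ae lies near the line.

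Some copies could not be told apart by counts. Lcp65Ab1 and Lcp65Ab2 had identical counts in all 12 libraries, 21 in total each, and Cpr65Ax1 and Cpr65Ax2 had the same count in 8 of 12, with totals of 150 and 156. Both Cpr65Ax genes were counted among the 13 genes apart in abdomen library 1. Lcp65Ag1, Lcp65Ag2 and Lcp65Ag3, also among the 13, had equal counts in 2 to 4 of 12 libraries for each pair. Their totals were 942, 1956 and 695. Sharing of reads between these copies was not tested, so they may not be independent. Of the 36 expressed genes 11 overlap another gene in the Release 6 annotation. Cpr65Au and Lcp65Ag3 overlap the antisense RNA asRNA:CR46005, and Cpr67Fb overlaps asRNA:CR45171. Cpr73D overlaps Obp73a and Ogdh, Cpr11B overlaps hwt, TwdlT overlaps RYa-R and Cpr57A overlaps Obp57d. The others are Cpr47Ea, Cpr51A, Cpr64Aa and TwdlE. The use of strand in counting is not given in the sources used here, so reads of overlapping genes cannot be told apart. All values given for these 11 genes carry this limit.

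Other genes of cuticle formation were followed as lists. Of 11 cuticle protein genes with other names 7 were tested, and in eviscerated abdomen against head 2 were higher and 3 lower, with a median of -1.88, against a background of 35.8% and 39.2% and a median of -0.08. The adult cuticle gene Acp65Aa, with 5.65, 6.495 and 6.04 CPM in eviscerated abdomen and 0.567, 0.558 and 0.243 CPM in head, was higher by 3.73 ± 0.49 on the log2 scale (edgeR adjusted p = 3.39e-05). The pupal cuticle gene Pcp, with 19.3, 7.45 and 14.6 CPM in eviscerated abdomen and 1.198, 1.59 and 1.28 CPM in head, was higher by 3.34 ± 0.48 (edgeR adjusted p = 3.04e-05). Both genes were separate from head in every abdomen library. Vajk2 had 2.00, 0 and 0.118 CPM in eviscerated abdomen, against 6.18, 6.94 and 4.81 CPM in head (-3.05 ± 0.90, edgeR adjusted p = 0.00942), and its value was -6.73 without abdomen library 1 and -2.40 without abdomen library 2.

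Of 24 genes of chitin synthesis and organisation 23 were tested, and in thorax against head 8 were higher and 2 lower, with a median of 0.38, against a background of 16.5% and 25.4% and a median of -0.17. The chitinase gene Cht8 had 135, 143 and 144 CPM in thorax, against 1.32, 0.399 and 0.304 CPM in head (7.66 ± 0.39, edgeR adjusted p = 1.41e-08). Cht4 (6.69 ± 0.63, edgeR adjusted p = 2.01e-06) and Cht9 (6.42 ± 0.46, edgeR adjusted p = 2.04e-07) were also higher in thorax than in head. Without head library 1 the values were 8.63 for Cht8, 7.86 for Cht4 and 7.13 for Cht9, and without thorax library 3 Cht4 was at 5.95. The gut marker genes were higher in thorax too, and their part in these values was not tested. In eviscerated abdomen against thorax 2 of the 23 were higher and 13 lower (background 35.5% and 36.9%), and in ovary against head 3 were higher and 18 lower (background 39.3% and 46.4%).

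All 12 genes of cuticle tanning and pigment were tested. In eviscerated abdomen against thorax 10 were lower and the other 2 did not pass, with a median of -2.91, where 36.9% of all genes tested were lower and the median was -0.08. In ovary against head all 12 were lower, where 46.4% of all genes tested were lower. The tyrosine hydroxylase gene ple had 6.47, 7.68 and 7.57 CPM in eviscerated abdomen, against 373, 387 and 344 CPM in thorax (-5.67 ± 0.19, edgeR adjusted p = 7.29e-10). The genes b, for the enzyme that makes beta-alanine (-5.45 ± 0.28, edgeR adjusted p = 4.84e-09), and e, for the enzyme that joins it to dopamine (-5.14 ± 0.25, edgeR adjusted p = 3.52e-09), were lower as well. No abdomen library reached the lowest thorax library for ple.

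The P450 reductase gene Cpr (FBgn0015623, arm 2L), which the prefix also picks, behaved unlike the 117 in that it was abundant in ovary. It had 169, 145 and 147 CPM in ovary, 755, 506 and 509 CPM in eviscerated abdomen, 369, 291 and 251 CPM in thorax, and 156, 179 and 197 CPM in head. It was higher in eviscerated abdomen than in head by 1.74 ± 0.20 on the log2 scale (edgeR adjusted p = 4.62e-06).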

How the data were processed

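The authors sequenced total RNA after rRNA depletion, mapped reads to dm3 with Tophat (TopHat2 2.0.10 and CASAVA 1.8 in the submitters' processing notes) and deposited raw counts per gene model from easyRNASeq, and the same genes as RPKM. The RPKM denominators differ from the summed counts. Symbols came from a FlyBase name table, which matched 13376 of 13898 genes.

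Counts of 12 libraries were analysed with edgeR 4.0.16 in R 4.3.3. The filter filterByExpr on tissue kept 11188 genes, TMM factors were computed, and a quasi-likelihood model with tissue as its only term was fitted, with p-values adjusted by Benjamini-Hochberg over all genes tested, a threshold of 0.05 and a prior count of 0.125. All tests are 2-sided. The SE printed with a fold change is approximate: the absolute log2 fold change divided by the square root of the quasi-likelihood F statistic. The batches of the authors' model are not named in the sources used here, so no batch term was added. DESeq2 1.42.0 and limma 3.58.1 (on log2 RPKM with 0.1 or 1 added), other scalings, filters and tests, the replicate number as a block and each library left out in turn were alternatives. Intervals are exact binomial at 95% and, like the floor of 3 counts, cover counting error only. The precision rests on 3 libraries per tissue, at the depths given in the report.

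Genes were named by rule: the 8 highest by RPKM in each tissue, in each comparison the 4 largest called changes in each direction without overlap between libraries, the corneal lens genes, Cpr, and 3 genes of each other list. Others, including the genes of abdomen library 1 and further fold changes, were chosen after their values were seen. The members and lists were chosen with earlier results of these data known. The 8-fold rule for abdomen library 1 and the calls and the RPKM order without it were added after seeing the data. Protein sequences were not used here.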

Additional observations from a re-analysis of the deposited data

How the results depend on the processing

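Of 75 fold changes, 55 kept their direction and their side of the threshold in all alternatives, 16 lost the call in at least 1, 3 gained it and 6 changed sign. The sign changes were in values near 0 or resting on abdomen library 1. For Cpr49Ae in eviscerated abdomen against thorax, limma gave -0.17 with either pseudocount. For Cpr67B in thorax against head, limma gave 0.73 with 0.1 added and 0.68 with 1 added, and leaving out 1 library at a time gave -0.33 to 0.00779, above 0 without any ovary library. For Cpr67B in eviscerated abdomen against thorax, library size alone gave 0.22, and leaving out 1 library at a time gave -0.58 to 0.079, above 0 without abdomen library 2 (0.079) or 3 (0.068). For Lcp65Ag1, Lcp65Ag2 and Lcp65Ag3 in eviscerated abdomen against thorax the values without abdomen library 1 were -0.69, -0.25 and -0.64, and the highest values, without abdomen library 3, were 4.104, 4.292 and 4.0005. The cause was not tested.

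Counts changed most with the filter and the scaling. They are counts of cuticle protein genes, and shares of all genes under the other filters, tests and levels were not counted. Eviscerated abdomen against head: 2 higher became 5 with library size alone, upper quartile factors or the likelihood ratio test, 6 without a filter or with limma on RPKM + 0.1 and 7 on RPKM + 1, and 18 lower became 31 without a filter. Eviscerated abdomen against thorax: 10 higher became 6 with the replicate block, DESeq2 or only the 2 tissues, 17 without a filter, and 3 and 5 with limma, and 15 lower became 9 with only the 2 tissues. Ovary against eviscerated abdomen: 0 higher became 6 and 5 with limma, and 31 lower became 59 without a filter and 16 with only the 2 tissues or limma on RPKM + 1. Ovary against head: 0 higher became 1 with library size alone, the likelihood ratio test or only the 2 tissues and 2 with limma, and 38 lower became 100 without a filter. Ovary against thorax: 1 higher became 2 with library size alone, the likelihood ratio test or limma on RPKM + 0.1, and 29 lower became 45 without a filter. Highest in thorax: 5 became 8 and 9 with limma. Highest in eviscerated abdomen: 1 became 2 with the replicate block, upper quartile factors or the likelihood ratio test, 3 with library size alone, 5 without a filter and 4 with limma on RPKM + 1. Highest in ovary: 0 became 1 with limma. Expressed genes: at 5 CPM 14 in head, 10 in thorax and 5 in eviscerated abdomen, at 1 RPKM 16 in head, 7 in eviscerated abdomen and 1 in ovary, and in ovary 2 at 0.5 CPM, with 2 of 3 libraries or by library size alone, and 3 at 10 raw counts.

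With each library left out in turn, 41 to 61 members were tested, since the filter then asks for fewer libraries. Over all genes 11196 to 11768 were tested, and the shares of them called were not counted. The counts ran from 11 to 25 lower in thorax than head, 2 to 7 higher and 18 to 34 lower in eviscerated abdomen than head, 4 to 15 higher in eviscerated abdomen than thorax, 27 to 47 lower in ovary than eviscerated abdomen, 37 to 58 lower in ovary than head, 1 to 2 higher in ovary than thorax, 8 to 22 highest in head, 1 to 6 highest in eviscerated abdomen and 0 to 1 expressed in ovary.

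Replicate numbers showed no clear pairing of the libraries: deviations of same-numbered libraries correlated from -0.18 to 0.16 and 2 of 18 pairs passed 0.1. With 3 libraries per tissue this check cannot show whether libraries shared a batch. The replicate block moved no count by over 1.5 times except eviscerated abdomen against thorax, higher (10 to 6), and highest in eviscerated abdomen (1 to 2). The 77 genes left out of the tests did not have enough reads in enough libraries.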

Other observations

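Besides the 13 cuticle protein genes, 20 other genes were more than 8 times both other abdomen libraries in eviscerated abdomen library 1, by a rule set after seeing the data. CG12546 and CG14452 had 29.9 CPM each in library 1, against 0.554 and 0 CPM in libraries 2 and 3, with the same counts in both genes. CG10953 had 20.5 CPM in library 1 and 0 counts in libraries 2 and 3. CG31626 had 16.5 CPM, against 0.317 and 0.237 CPM, and CG32453 had 14.9 CPM, against 0 counts. Thorax library 3 had 29 genes that far above both other thorax libraries, 0 of them cuticle protein genes.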
